A study of Mus musculus with 6 samples.

Results

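The 27 genes described here encode enzymes of the mevalonate and sterol synthesis pathway, a carrier of sterols between membranes, and the proteins that govern SREBP, the transcription factor of this pathway. They were chosen by name from knowledge of the pathway, but with earlier results of these data known. The number of them called is therefore a description and not an independent finding. They were matched by Ensembl identifier, and all 27 were found among the 55536 genes listed per library. The study set SVEC4-10 cells treated with nattokinase for 24 hours (3 libraries) against untreated SVEC4-10 cells (3 libraries), to see which transcripts differ after the exposure. SVEC4-10 is an immortalised mouse line labelled as endothelial, and both groups were grown in medium with fetal bovine serum, a source of lipoprotein cholesterol. Nattokinase is a fibrin-degrading serine protease from fermented soybeans. The sources used here state no dose. Nor do they say whether replicates came from separate cultures, so a p-value here reflects the spread of these libraries alone, which may be technical.

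Cells build sterols by joining acetyl-CoA units into mevalonate, turning mevalonate into isoprene units, joining these into farnesyl diphosphate and squalene, and closing and trimming squalene into cholesterol. Transcription of most of these enzymes is driven by SREBP, which is made as a membrane precursor in the endoplasmic reticulum and is bound there by the escort protein SCAP. When sterols are plentiful, INSIG proteins hold the SCAP-SREBP complex back. When sterols are scarce, the complex moves to the Golgi, where the proteases encoded by Mbtps1 and Mbtps2 cut SREBP and release its active part to the nucleus.

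With nattokinase, most of the sterol synthesis enzymes were lower, the 15 called by 20.0% to 48.8% of the control mean. Of the 7 regulators of SREBP, 2 were lower and 5 did not pass the test, as was so for most tested genes. At an unadjusted p under 0.05 by limma, 3 of these regulators were lower and 1 higher. Of 26 genes that reached the filter on low values, 18 fell and 0 rose (limma, Benjamini-Hochberg adjusted p under 0.05 over 10913 tested genes). Among all tested genes 354, or 3.24%, were called lower, and 612, or 5.61%, higher, together 8.85%. All nattokinase libraries lay below all controls for 20 of the 26 genes and above them for 1, beside 11.4% and 17.4% of all tested genes, together 28.8%. At an unadjusted p under 0.05, 20 of the 26 were lower and 1, Mbtps2, was higher, and limma-voom on recovered reads called 18 lower and 1 higher. By role, 15 of 18 tested enzymes fell, as did the sterol carrier gene Stard4 and 2 of 7 regulators. The median log2 fold change was −0.39 over the 26 genes and −0.42 over the 18 tested enzymes, beside 0.01 over all tested genes. Log2 fold changes are nattokinase minus control of log2(FPKM + 1), so that changes of low genes come out smaller than they are. FPKM is the read number scaled to exon length and to the assigned reads of the library. The FPKM of the 19 enzymes summed to 354, 301 and 305 in the nattokinase libraries, against 417, 437 and 431 in the controls. Without any filter on low values, when 24549 genes were tested, 6 of the 27 were called lower, namely Acat2, Mvk, Fdft1, Lss, Dhcr7 and Srebf2.

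**Figure D1:**
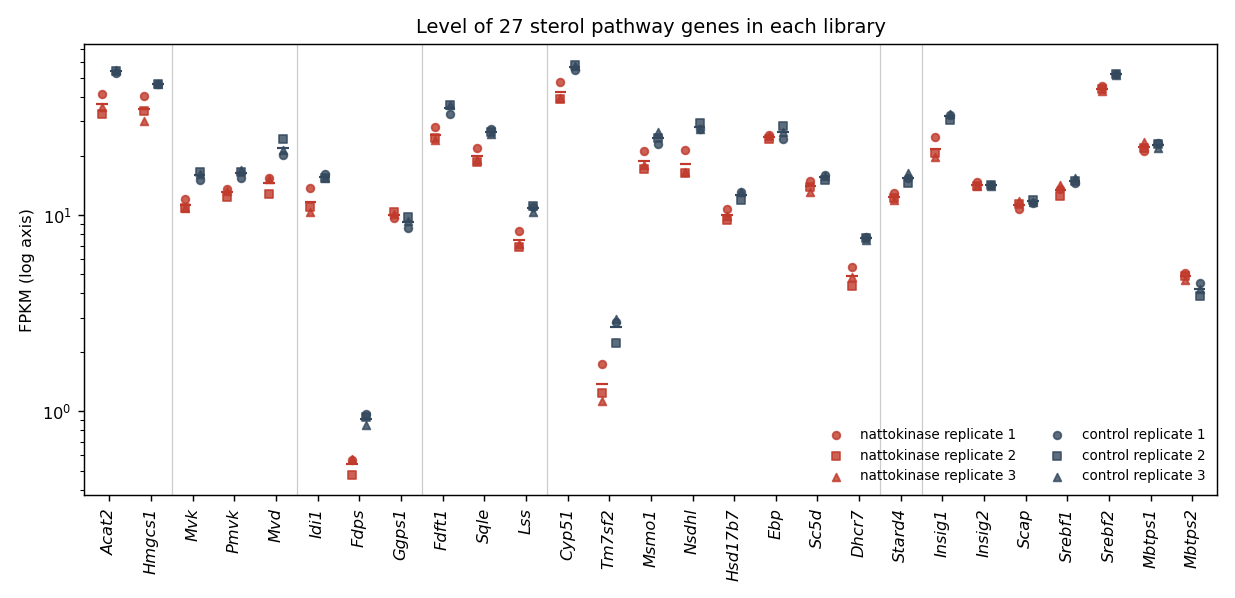
FPKM (log axis) of the 27 genes in pathway order, with nattokinase libraries in red to the left of control libraries in dark blue, a mark shape per replicate number, and a short line at each group mean. Grey lines part the steps, from condensation at the left to sterol transport and the regulators at the right, and Cyp51 and Fdps have the highest and lowest control means, 57.0 and 0.917 FPKM.

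The libraries differed in ways that bear on all genes. Assigned reads numbered 17525090 to 18341370 in the nattokinase libraries and 15044778 to 16496433 in the controls, and 3 reads on 2 kb of exons correspond to 0.0818 to 0.0997 FPKM, a limit that covers counting error only. A set of 6 rRNA-like genes, chosen after their values were seen, took 0.763% ± 0.051 of reads with nattokinase and 3.35% ± 0.73 in the controls (SD, n = 3 each). With library totals that leave these genes out, 18 of the 27 genes were again called lower. Of 15 endothelial markers 2 reached the filter, while Emcn, Cldn5, Erg and Tie1 were without a read in each of the 6 libraries, and the others below the filter had few reads. Summed endothelial markers were 16.4 to 17.1 FPKM with nattokinase and 13.9 to 16.3 in the controls, mostly from Flt4 (10.6 to 10.8 and 10.6 to 11.8 FPKM) and Flt1 (4.64 to 5.05 and 2.41 to 2.86 FPKM), and Flt1 alone set the higher sum. Of 12 fibroblast and mural markers 8 reached the filter, with sums of 2869 to 2939 FPKM with nattokinase and 2661 to 2760 in the controls. Acta2 alone set this higher sum, with 891 to 916 FPKM with nattokinase and 432 to 475 FPKM in the controls, while Col3a1 had 94.6 to 96.9 FPKM with nattokinase and 141 to 146 FPKM in the controls. Col1a1 went the same way as Col3a1, with 1195 to 1262 FPKM with nattokinase and 1360 to 1480 FPKM in the controls. Of the 8 leukocyte markers 2 reached it (8.10 to 8.36 and 6.02 to 7.44 FPKM), with Ptprc, Adgre1, Itgam and Cd3e at 0. Of the 6 epithelial markers 1 reached it (4.47 to 5.57 and 4.34 to 4.81 FPKM), with Krt5 and Cldn4 at 0. Of the 5 hepatocyte markers 0 reached it (at most 0.368 and 0.103 FPKM), with Alb and Ttr at 0. The part of these marker genes in the results was not tested, and in bulk RNA fewer cells of a type and less RNA per cell cannot be told apart.

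SREBP is known to act at promoters of sterol synthesis genes together with the CCAAT-binding factor NF-Y. Promoter windows of some genes that fell are shown as background, and binding of either factor in these cells was not tested. RefSeq windows (GRCm38.p6, from 250 bases before to 50 bases after the start of transcription) were found for 23 of the 27 genes. In the 5 windows below, all of genes called lower, capitals mark the CCAAT box (CCAAT or ATTGG) and, in Hmgcs1, the sterol response element searched for (TCACNCCAC or its reverse complement GTGGNGTGA).
Hmgcs1, chr13:119690101-119690400, plus strand: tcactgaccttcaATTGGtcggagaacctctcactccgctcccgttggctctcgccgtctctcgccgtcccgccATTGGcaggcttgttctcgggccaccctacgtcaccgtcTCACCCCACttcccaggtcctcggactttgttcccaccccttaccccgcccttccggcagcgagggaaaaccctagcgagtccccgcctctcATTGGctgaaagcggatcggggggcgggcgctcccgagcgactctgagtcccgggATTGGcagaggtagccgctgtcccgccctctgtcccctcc
Mvk, chr5:114444019-114444318, plus strand: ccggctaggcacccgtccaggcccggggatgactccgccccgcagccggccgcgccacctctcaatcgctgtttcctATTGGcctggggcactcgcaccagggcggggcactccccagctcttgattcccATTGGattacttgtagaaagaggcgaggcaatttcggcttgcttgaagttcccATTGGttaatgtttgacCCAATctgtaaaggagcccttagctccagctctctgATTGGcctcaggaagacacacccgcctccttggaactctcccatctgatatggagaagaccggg
Nsdhl, chrX:72918271-72918570, plus strand: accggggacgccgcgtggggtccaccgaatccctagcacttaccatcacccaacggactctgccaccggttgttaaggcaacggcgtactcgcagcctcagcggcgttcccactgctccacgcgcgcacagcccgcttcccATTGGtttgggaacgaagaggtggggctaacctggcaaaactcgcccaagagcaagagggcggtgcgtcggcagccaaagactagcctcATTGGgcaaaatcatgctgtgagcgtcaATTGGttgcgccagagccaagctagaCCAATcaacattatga
Insig1, chr5:28071162-28071461, plus strand: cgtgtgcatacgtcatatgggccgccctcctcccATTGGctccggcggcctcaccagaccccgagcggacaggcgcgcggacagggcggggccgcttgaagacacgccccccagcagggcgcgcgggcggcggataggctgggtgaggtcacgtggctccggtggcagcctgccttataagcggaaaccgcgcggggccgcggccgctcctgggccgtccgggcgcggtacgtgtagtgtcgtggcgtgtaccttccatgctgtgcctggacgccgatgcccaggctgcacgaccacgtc
Srebf2, chr15:82147019-82147318, plus strand: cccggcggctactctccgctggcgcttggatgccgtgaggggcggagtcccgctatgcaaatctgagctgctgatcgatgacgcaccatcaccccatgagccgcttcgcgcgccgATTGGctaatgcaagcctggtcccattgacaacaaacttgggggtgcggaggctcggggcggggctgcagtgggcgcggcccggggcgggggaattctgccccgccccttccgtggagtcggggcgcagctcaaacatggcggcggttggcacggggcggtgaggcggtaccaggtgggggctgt
The sterol response letters occurred in 1 of the 23 genes, Hmgcs1, 137 bases before the start, and in 1.44% of all 27025 genes with a window. The shorter core CACNCCAC, which overlaps that motif, occurred in 3 of the 23 genes, Acat2, Hmgcs1 and Insig1, and in 7.12% of all genes. A CCAAT box on either strand occurred in 19 of the 23 genes, beside 41.1% of all genes with a window and 43.6% of those tested here. It was present in 14 of 15 genes called lower that had a window and in 5 of the other 8. The windows printed above were all taken from genes with such a box. Acat2, called lower, had none in its window, while Ggps1 and Insig2, not called, had 3 each in a window. Mvk carried 5 such boxes, and Hmgcs1 and Nsdhl carried 4 each. The GC box GGGCGG, the core of Sp1 sites, occurred on either strand in 20 of the 23 genes and in 72.4% of tested genes. Like the CCAAT box, it was present in 14 of 15 genes called lower, and it was present in 6 of the other 8. The E-box CACGTG occurred in 5 of the 23 and in 12.3% of tested genes. These were 3 of the 15 genes called lower and 2 of the other 8. Genes with several annotated starts were counted if any window held the letters. The motifs were chosen with the expression results known, a match is a run of letters and not a measured binding site, and absence says only that the letters are not in this window.

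The first step is the joining of acetyl-CoA units. Acat2, the cytosolic thiolase that makes acetoacetyl-CoA (GRCm38 chromosome 17, 12942890 to 12960747), had 41.6, 32.9 and 35.4 FPKM with nattokinase, against 52.9, 54.3 and 55.1 FPKM in the controls. All nattokinase libraries lay below all controls, and the gene fell by 32.3% (log2 fold change −0.56, SE 0.076, limma adjusted p = 0.0021). In its transcripts 445 bases match the opposite strand of Tcp1 at 98.7% identity, and Tcp1 had 7384 to 8370 reads with nattokinase and 6085 to 6730 in the controls. A stretch of 1477 bases matches Acat3 at 97.7%, which had at most 9 reads, so how reads from these stretches were assigned is uncertain. Hmgcs1, the cytosolic HMG-CoA synthase (chromosome 13, 119690379 to 119708260), had 40.4, 33.9 and 30.3 FPKM with nattokinase, against 46.5, 46.3 and 46.4 FPKM in the controls. The controls were nearly equal and the nattokinase libraries were spread widely below them. Hmgcs1 fell by 24.9% (log2 fold change −0.41, SE 0.089, limma adjusted p = 0.024). Its call did not hold without nattokinase replicate 2 or without any 1 control (limma adjusted p 0.080 to 0.095).

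The mevalonate kinases and decarboxylase, which phosphorylate mevalonate and turn it into the first isoprene unit, fell as well. Mvk, mevalonate kinase (chromosome 5, 114444269 to 114460591), had 12.0, 10.8 and 10.9 FPKM with nattokinase, against 15.1, 16.5 and 16.2 FPKM in the controls. It had the smallest adjusted p of the 27 genes (limma adjusted p = 0.0011, log2 fold change −0.47, SE 0.058). Mvd, the decarboxylase (chromosome 8, 122433601 to 122443422), had 15.4, 12.8 and 15.3 FPKM with nattokinase, against 20.3, 24.5 and 21.4 FPKM in the controls. Mvd fell by 34.2%, with no overlap between the groups (limma adjusted p = 0.0040). Pmvk, phosphomevalonate kinase, averaged 13.1 ± 0.64 FPKM with nattokinase and 16.3 ± 0.81 FPKM in the controls (SD, n = 3 each; limma adjusted p = 0.0089).

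At the isoprenoid stage the genes differed from each other. Idi1, the isomerase that makes the second kind of isoprene unit (chromosome 13, 8885501 to 8892451), had 13.7, 11.1 and 10.4 FPKM with nattokinase, against 16.2, 15.4 and 15.4 FPKM in the controls (limma adjusted p = 0.024). Its call held only when nattokinase replicate 1 was the library left out, with limma adjusted p between 0.067 and 0.095 without any other. Fdps, farnesyl diphosphate synthase, did not reach the filter of 1 FPKM in 3 libraries, although its product feeds all later steps. It was listed at 0.567, 0.475 and 0.570 FPKM with nattokinase, from 43, 35 and 44 reads, against 0.968, 0.932 and 0.850 FPKM in the controls, from 66, 59 and 59 reads. Its level is uncertain, because 26.7% of its exon length is shared with the overlapping gene Gm43738 and 4 processed pseudogenes match its transcripts at 95% identity or more. Ggps1, which makes the geranylgeranyl diphosphate used to anchor small GTPases in membranes (chromosome 13, 14050659 to 14063488), had 9.71, 10.4 and 10.1 FPKM with nattokinase, against 8.64, 9.81 and 9.36 FPKM in the controls. Here the groups overlapped (log2 fold change 0.11, 95% interval −0.02 to 0.24, limma adjusted p = 0.32).

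The squalene steps, which commit farnesyl diphosphate to sterols, fell in all 3 genes. Fdft1, squalene synthase (chromosome 14, 63145150 to 63179578), had 28.0, 24.7 and 24.1 FPKM with nattokinase, against 32.9, 36.3 and 36.4 FPKM in the controls. Every nattokinase library was below every control, and the log2 fold change was −0.45 (SE 0.064, limma adjusted p = 0.0024). Exons of the opposite-strand gene Ctsb cover 18.3% of the exon length of Fdft1, and since strand use is not stated, reads from the shared stretch could belong to either gene. Sqle, squalene epoxidase (chromosome 15, 59315077 to 59331192), had 22.0, 18.7 and 19.2 FPKM with nattokinase, against 27.6, 26.6 and 25.8 FPKM in the controls. It fell by 25.1% (limma adjusted p = 0.0035). Lss, lanosterol synthase, which closes the sterol rings, averaged 7.46 ± 0.75 FPKM with nattokinase and 10.8 ± 0.42 FPKM in the controls (SD, n = 3 each; limma adjusted p = 0.0021).

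Of the 8 genes that turn lanosterol into later sterols, 6 fell. Cyp51, the lanosterol demethylase and in the controls the most abundant of the 27 transcripts per length (chromosome 5, 4081145 to 4104746), had 47.8, 39.2 and 39.6 FPKM with nattokinase, against 55.1, 58.5 and 57.4 FPKM in the controls (limma adjusted p = 0.0058). Nsdhl, the dehydrogenase that helps to remove the methyl groups of the sterol core (chromosome X, 72918557 to 72958514), had 21.5, 16.3 and 16.6 FPKM with nattokinase, against 27.5, 29.4 and 27.3 FPKM in the controls. Nsdhl fell by 35.4% (log2 fold change −0.61, SE 0.096, limma adjusted p = 0.0066). Dhcr7, a reductase near the end of the pathway (chromosome 7, 143823145 to 143848410), had 5.45, 4.34 and 4.86 FPKM with nattokinase, against 7.74, 7.68 and 7.49 FPKM in the controls. It fell by 36.1% with no overlap between the groups (limma adjusted p = 0.0014). Tm7sf2, a sterol reductase of low level here (chromosome 19, 6062821 to 6068373), had 1.75, 1.24 and 1.13 FPKM with nattokinase, against 2.86, 2.23 and 2.96 FPKM in the controls. It fell by 48.8% (limma adjusted p = 0.0080), the largest percentage among the 18 genes called, and 12.1% of its exon length overlaps Vps51.

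The remaining 4 genes of this stage had smaller differences. Msmo1, a methylsterol oxidase, averaged 18.8 ± 2.2 FPKM with nattokinase and 24.7 ± 1.7 FPKM in the controls (SD, n = 3 each; limma adjusted p = 0.019), and its call was lost without nattokinase replicate 2 or 3 or control replicate 2 or 3 (limma adjusted p 0.062 to 0.083). Hsd17b7, a ketosteroid reductase, fell by 21.3% (limma adjusted p = 0.010). Ebp, the sterol isomerase, had 25.7, 24.6 and 25.2 FPKM with nattokinase, against 24.4, 28.4 and 26.6 FPKM in the controls. The Ebp groups overlapped, and the 95% interval of its log2 fold change, −0.20 to 0.06, includes 0 (limma adjusted p = 0.54). Sc5d, a sterol desaturase, had 15.0, 13.9 and 13.1 FPKM with nattokinase, against 16.1, 15.2 and 15.8 FPKM in the controls. All its nattokinase libraries were below its controls, but the test was not passed (log2 fold change −0.15, limma adjusted p = 0.13). Stard4, which carries sterols through the cytosol, averaged 12.4 ± 0.55 FPKM with nattokinase and 15.5 ± 0.97 FPKM in the controls (SD, n = 3 each; limma adjusted p = 0.012, and 0.059 without nattokinase replicate 3).

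**Figure D2:**
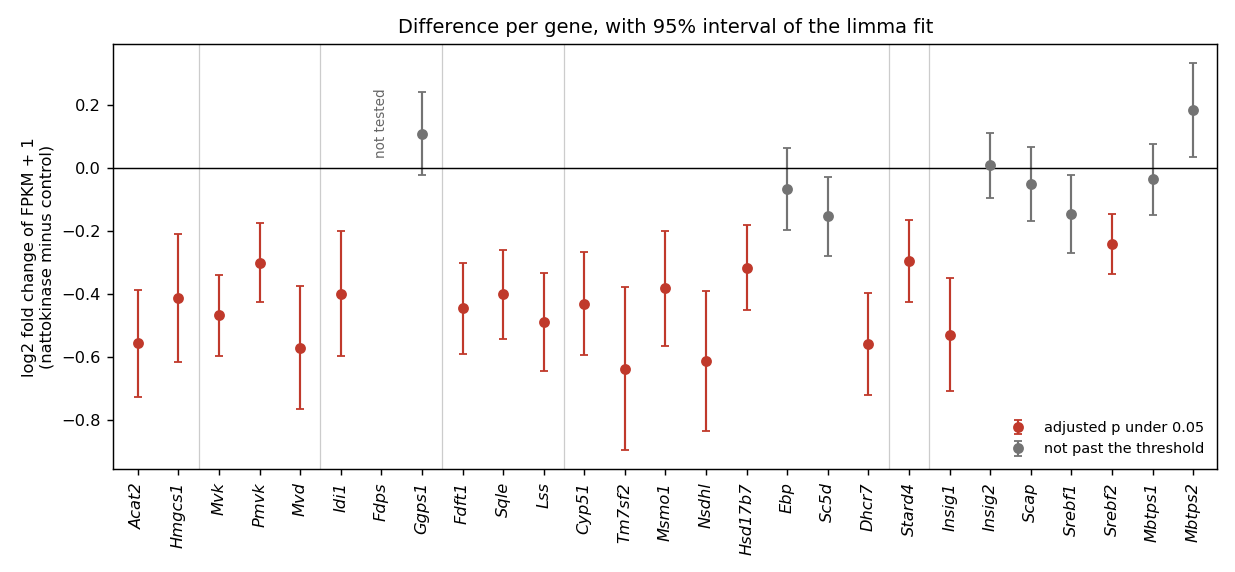
Log2 fold change of FPKM + 1 (nattokinase minus control) for each gene in pathway order, with bars for the 95% interval of the limma fit. Red points are the 18 genes with an adjusted p under 0.05, between −0.64 and −0.24, and grey points are the 8 that did not pass, between −0.15 and 0.18. Fdps was not tested.

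Among the regulators, Insig1 and Srebf2 fell and the other 5 did not pass the test. Insig1, which retains SCAP in the endoplasmic reticulum and is itself an SREBP target (chromosome 5, 28071363 to 28078662), had 25.0, 20.7 and 19.8 FPKM with nattokinase, against 32.2, 30.5 and 32.8 FPKM in the controls. It fell by 31.4% (log2 fold change −0.53, SE 0.079, limma adjusted p = 0.0034). Insig2, its paralog with the same retaining role (chromosome 1, 121304353 to 121332589), had 14.8, 14.1 and 14.0 FPKM with nattokinase, against 14.3, 14.3 and 14.0 FPKM in the controls. The Insig2 groups overlapped, and the 95% interval of its log2 fold change ran from −0.10 to 0.11.

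Srebf2 and Srebf1 encode the SREBP precursors, the first known mainly for sterol genes and the other mainly for fatty acid genes. Srebf2 (chromosome 15, 82147181 to 82205379) had 45.5, 43.8 and 42.9 FPKM with nattokinase, against 52.4, 52.6 and 51.9 FPKM in the controls, and fell by 15.7% (limma adjusted p = 0.0069), the smallest percentage among the 18 genes called. Srebf1 (chromosome 11, 60199089 to 60222581) had 13.5, 12.6 and 14.3 FPKM with nattokinase, against 14.6, 14.9 and 15.5 FPKM in the controls. The Srebf1 libraries of the groups did not overlap, but the test was not passed (log2 fold change −0.15, 95% interval −0.27 to −0.02, limma adjusted p = 0.15). Values per gene do not part the isoforms that start from its 3 windows.

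The genes for SREBP escort and cleavage had small differences. Scap, the escort, averaged 11.3 ± 0.54 FPKM with nattokinase and 11.7 ± 0.22 FPKM in the controls, and Mbtps1, the first Golgi protease to cut, 22.2 ± 1.2 FPKM with nattokinase and 22.7 ± 0.56 FPKM in the controls (SD, n = 3 each; limma adjusted p = 0.63 and 0.73). Mbtps2, the protease that makes the following cut within the membrane (chromosome X, 157535371 to 157598715), had 5.06, 4.90 and 4.68 FPKM with nattokinase, against 4.53, 3.85 and 4.18 FPKM in the controls. All its nattokinase libraries lay above its controls, with a log2 fold change of 0.18 that did not pass the test (limma adjusted p = 0.13) but did pass with limma-voom on recovered reads (adjusted p = 0.042). The overlapping gene Yy2, on the same strand, covers 28.4% of the exon length of Mbtps2 and had 0 reads in every library. The shared 2867 bases are identical, so how reads from this stretch were assigned is uncertain.

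Ratios of genes within a library are free of library scaling and were compared for 5 pairs. Each pair except Mbtps1 and Mbtps2 set a gene called lower over a gene not called, in the same libraries. A lack of overlap in such a pair largely restates the values per gene and is no separate support. How often ratios of other genes lacked overlap was not computed. With 3 libraries per group the smallest two-sided p of an exact permutation test is 0.1, so no pair could pass 0.05. The log2 ratio of Insig1 to Insig2 was 0.76, 0.55 and 0.50 with nattokinase, against 1.17, 1.09 and 1.23 in the controls. The groups did not overlap, with a difference of −0.56 (exact permutation p = 0.1, adjusted over the 5 pairs p = 0.125). The log2 ratio of Fdft1 to Ggps1, the genes that draw on farnesyl diphosphate for squalene and for geranylgeranyl diphosphate, was 1.53, 1.25 and 1.26 with nattokinase, against 1.93, 1.89 and 1.96 in the controls. Its difference was −0.58, again without overlap (exact permutation p = 0.1, adjusted p = 0.125). Sqle to Scap differed by −0.36 and Mbtps1 to Mbtps2 by −0.26, both without overlap and with the same p. The ratio of Srebf2 to Srebf1 overlapped between the groups, at 1.71 ± 0.11 with nattokinase and 1.80 ± 0.048 in the controls (SD, n = 3 each), a difference of −0.09 (exact permutation p = 0.3).

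**Figure D3:**
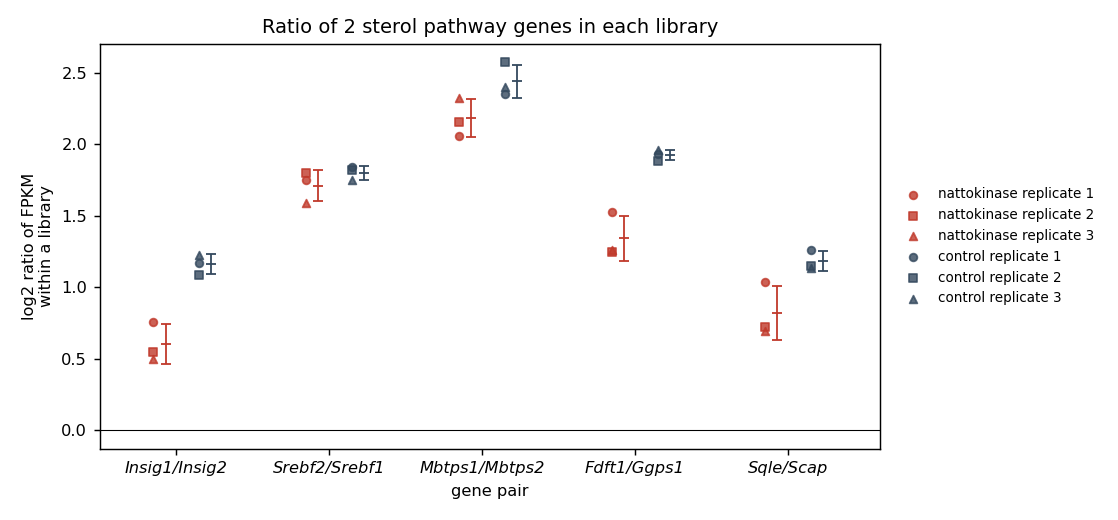
Log2 ratio of FPKM of 2 genes within each library, with nattokinase in red to the left of control in dark blue, a mark shape per replicate number, and the mean with SD beside the points (n = 3 each). The groups are apart for each pair except Srebf2/Srebf1.

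The genes that fell also shared an order of the nattokinase libraries. Nattokinase replicate 1 was the highest of the 3 nattokinase libraries for 18 of the 18 genes called lower, and it lay between the other nattokinase libraries and the controls. Among the other 336 genes called lower in the whole table, replicate 1 was the highest nattokinase library for 113, or 33.6%. For the 8 genes not called it was the highest for 4. In the controls no library held that place, control replicates 1, 2 and 3 being the highest for 4, 6 and 8 of the 18 genes. The rRNA-like share of nattokinase replicate 1 was 0.734%, between the 0.732% and 0.822% of the others. The summed FPKM of the 18 genes was 387, 329 and 331 in nattokinase replicates 1 to 3, against 467, 480 and 480 in the controls, whereas the 8 genes not called summed to 116, 114 and 117 with nattokinase and 117, 121 and 119 in the controls. The 18 genes are read from the same 6 libraries and are not independent. Without nattokinase replicate 1 the number called lower was again 18.

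**Figure D4:**
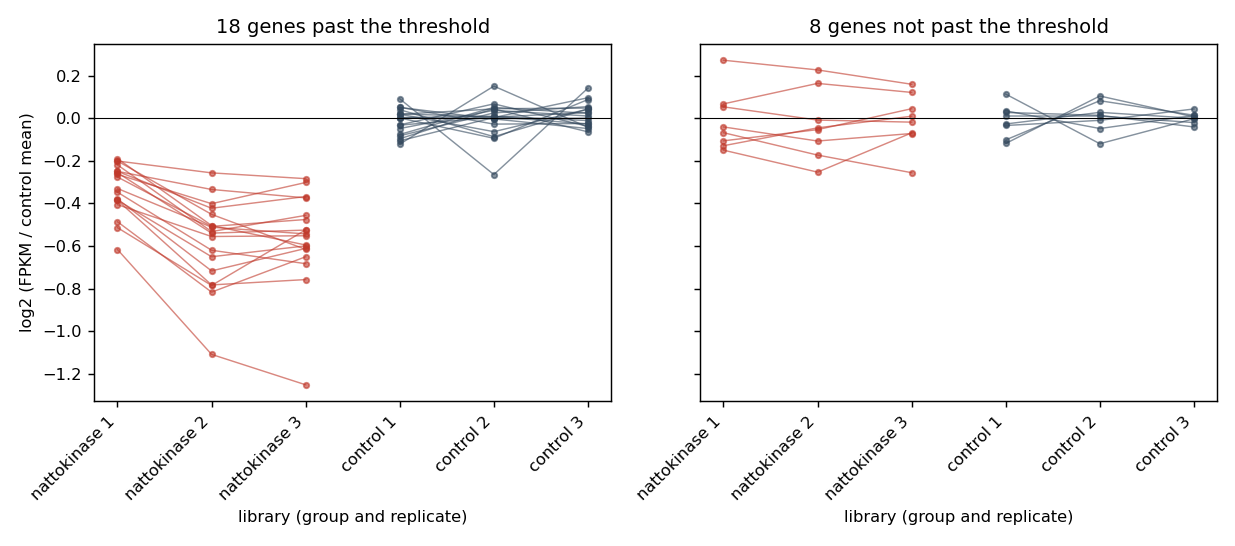
Log2 of FPKM over the control mean in each library, for the 18 genes called lower (left) and the 8 not called (right), with a line per gene joining the libraries of a group. In the left panel each red line has its highest point at nattokinase replicate 1, and the controls scatter around 0.

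Other genes of sterol metabolism were counted by the same test. Of 12 tested genes of a list of further sterol synthesis and uptake genes, 6 fell and 1 rose, with a median log2 fold change of −0.21. Aacs, which makes acetoacetyl-CoA from acetoacetate, averaged 22.8 ± 1.5 FPKM with nattokinase and 29.3 ± 1.8 FPKM in the controls (SD, n = 3 each; limma adjusted p = 0.0065). The gene that rose was Pgrmc1, a haem-binding partner of sterol-modifying cytochromes, named after its value was seen (log2 fold change 0.21), and its call was lost without nattokinase replicate 2 or 3 or control replicate 2 or 3, and with a replicate block (limma adjusted p up to 0.098).

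Genes that use isoprenoids rather than sterols, or that hold and move SCAP, mostly did not pass the test, as was so for most tested genes. Of 10913 tested genes 3.24% were called lower and 5.61% higher, together 8.85%. At an unadjusted p under 0.05 by limma, 946 of them were lower and 1549 higher. The low counts that follow are therefore not read as a result about these genes. Of 14 tested genes of the isoprenoid branch, among them prenyltransferases and enzymes of dolichol and ubiquinone synthesis, 0 fell and 1 rose by limma. At an unadjusted p under 0.05, 0 were lower and 2 higher, and limma-voom called 0 lower. The gene that rose, Nus1, a subunit of the dolichol-making prenyltransferase, averaged 30.0 ± 1.3 FPKM with nattokinase and 26.5 ± 0.60 FPKM in the controls (limma adjusted p = 0.049), and its call was lost without any 1 library and after rescaling (adjusted p up to 0.20). Rabggtb, Pdss1 and Chm had log2 fold changes of 0.15, 0.17 and 0.14 and did not pass. Of 19 tested genes for retention, export and degradation partners of INSIG and SCAP, 0 fell and 0 rose by limma or limma-voom, and 0 had an unadjusted p under 0.05. The 4 with the smallest p were Fbxw7, Sec24c, Sar1b and Sec24d, with log2 fold changes of −0.16, −0.07, 0.10 and −0.07.

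Neighbouring lipid genes were counted too. Of 11 tested fatty acid targets of SREBP, 10 fell and 0 rose (11 lower and 0 higher at an unadjusted p under 0.05, and 0 higher with limma-voom), with a median log2 fold change of −0.31, and 6 fell without nattokinase replicate 2. Scd1, a desaturase, had 14.4, 11.9 and 11.9 FPKM with nattokinase, against 18.6, 21.4 and 18.1 FPKM in the controls. Fads2, Scd2 and Fads1, further desaturases, had log2 fold changes of −0.43, −0.52 and −0.31. A further list of 11 genes held the oxysterol receptor LXR, its targets, and genes of sterol efflux and handling. Of its 5 tested genes, among them an LXR gene itself, 2 rose and 1 fell. The others did not reach the filter on low values. Abca1, the exporter of cellular cholesterol, had 6.24, 7.47 and 7.27 FPKM with nattokinase, against 4.23, 3.80 and 3.68 FPKM in the controls (log2 fold change 0.70, SE 0.076, limma adjusted p = 0.00050). Soat1, which esterifies cholesterol, had a log2 fold change of 0.23, Lpcat3, a phospholipid acyltransferase, −0.22, and Npc2, a lysosomal sterol carrier that did not pass, 0.08. The call of Soat1 was lost without nattokinase replicate 2 or 3 or control replicate 2 or 3 (limma adjusted p up to 0.080), and that of Lpcat3 without any nattokinase replicate or control replicate 2 (limma adjusted p up to 0.12).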

How the data were processed

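The authors deposited 1 file per library with FPKM values for 55536 Ensembl genes, all matched to GENCODE M21 (GRCm38). The submitters' processing notes name DESeq2 1.22.1, featureCounts 1.6.0, HISAT2 2.1.0, Trimmomatic 0.38, MultiQC, FastQC and CASAVA, without their roles. Those notes name GRCh38, a human build, although the identifiers are from mouse. Strand use is not stated. Multiplied by merged exon length, at least 99.97% of values above 0 were whole multiples (within 0.05) of a step of their library, which gives 15044778 to 18341370 assigned reads.

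Values were analysed as log2(FPKM + 1) for the 10913 genes that reached 1 FPKM in 3 or more libraries, by limma 3.58.1 in R 4.3.3 (group only, intensity trend, robust prior, two-sided, Benjamini-Hochberg at 0.05). The fit was also tried on simulated libraries with the same set dispersion for every gene, which does not give its error rate in these data. Groups came from sample titles. Copies were sought by blastn over at least 300 bases, and permutation tests used scipy 1.17.1.

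The members and lists were chosen with earlier results of these data known. All members are named, with up to 4 genes of smallest p per further list, of which some are not reported here. A likeness measure also planned was not used, since the groups form separate clusters. Alternatives were other pseudocounts, filters, scalings, limma-voom, a replicate block and leaving out libraries. Scaling without the rRNA-like genes was added after seeing the data.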

Additional observations from a re-analysis of the deposited data

How the results depend on the processing

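Each of the 18 genes called lower was called lower in all of the 9 alternatives that kept a filter and every library (other pseudocounts, a filter at a mean of 5 FPKM, 4 rescalings, limma-voom and a replicate block), except that Tm7sf2 was not tested at 5 FPKM. Without a filter on low values the fit, with its prior, was run anew on 24549 genes, and 6 of the 27 were lower. The part of the added genes and of the prior in this lower count was not tested. Of all genes, 109 were lower and 221 higher. The further sterol list had 3 lower and 0 higher, the isoprenoid branch 0 higher, and the fatty acid list 4 lower. The LXR and efflux list had 0 lower and 1 higher. With limma-voom 1 of the 27, Mbtps2, was higher. Leaving out 1 library gave 15 to 18 of the 27 lower (15 without nattokinase replicate 2 or 3 or control replicate 2 or 3, 16 without control replicate 1), and 0 higher each time. Over all genes, 197 to 486 were lower and 328 to 720 higher: 198 and 328 without nattokinase replicate 2, 197 and 344 without nattokinase replicate 3, 200 and 360 without control replicate 2, and 209 and 409 without control replicate 3, against 354 and 612 with all 6 libraries. In the lists these ranges were 0 to 1 higher for further sterol genes, 0 higher for the isoprenoid branch, 6 to 9 lower for fatty acid genes, and 0 to 1 lower and 1 to 2 higher for LXR and efflux genes. The 1 call of the isoprenoid branch was lost (0 higher) with protein-coding totals, median-of-ratios scaling, quantile normalization, totals without rRNA-like genes and the replicate block, and the cause was not tested. Replicate numbers did not pair the libraries: same-numbered deviations correlated at −0.089, −0.044 and −0.059, and no library correlated best with its own number. With the replicate block 18 of the 27 were lower, 249 and 439 of all genes were lower and higher, and the further sterol list had 0 higher. Fdps had 35 to 66 reads per library, and how reads were assigned between it, the overlapping gene and the matching pseudogenes is uncertain.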
